A study of Mus musculus with 12 samples.

Results

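The accessibility of the Th2 cytokine locus (Il4, Il13, Rad50 and Il5 on chromosome 11), of Gata3 on chromosome 2 and of Il4ra on chromosome 7 was followed by ATAC-seq in wild-type (WT) and Ikaros-deficient (Ikzf1-cko) regulatory T cells (Treg). The members were all open chromatin regions (OCR) that overlapped the body of 1 of these 6 genes or the 20 kb on either side of it in the mm9 gene annotation. This rule, which used positions and no measured value, took 51 of 118680 regions, and 39 of the 51 were among the 69957 regions with enough reads to be tested. Il4 had 7 regions, Il13 4, Rad50 6, Il5 3, Gata3 22 and Il4ra 16, and 5 regions were shared by neighboring genes of the cytokine locus.

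In ATAC-seq the Tn5 transposase cuts open chromatin, and the reads on a region measure its accessibility. The WT cells came from Foxp3-YFP-Cre mice, the Ikzf1-cko cells from mice that also carried Ikzf1-fl, and both were sorted as YFP+ Treg. They were used ex vivo or cultured for 4 hr on plate-bound anti-CD3 and anti-CD28, which stimulate the T cell receptor and the costimulatory receptor CD28. Each of the 4 groups had 3 libraries. The paper states that part of the sorted Treg was stimulated and the rest was not, so that ex vivo and stimulated libraries may share mice. All groups carried the Foxp3-YFP-Cre allele, and the Cre is driven by Foxp3, so that Ikzf1, which encodes the zinc finger factor Ikaros, was deleted in Foxp3+ cells. The labels give spleen as the tissue, whereas the paper's general methods for T cell purification name spleen and lymph nodes. The age and sex of the mice of these libraries are not given in the sources used here. Levels are given as FPKM, the reads on a region scaled to its length and to the total reads of the library on all regions, and a fold change is the log2 ratio of group levels with its standard error (SE). A region was called when its false discovery rate (FDR) in edgeR's quasi-likelihood test, adjusted over all 69957 tested regions, was below 0.05 and its absolute log2 fold change was above 1. Counts at FDR below 0.05 alone are given as well.

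Il4, Il13 and Il5 encode the signature cytokines of type 2 helper T cells and are expressed together from 1 chromosomal domain. Rad50, a DNA repair gene that lies between Il13 and Il5, holds the Th2 locus control region in introns of its 3′ part. Gata3 encodes the transcription factor that directs Th2 differentiation and is also needed for Treg function, and Il4ra encodes the receptor chain shared by the receptors for IL-4 and IL-13, which signals through Stat6.

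The mm9 sequence of 6 of these regions is shown because the results turn on them. OCR_17974 (window chr11:53470287-53470586) and OCR_17975 (chr11:53476358-53476657) lie in introns of Rad50, and their levels did not overlap between ex vivo genotypes. OCR_60238 (chr2:9789017-9789316) and OCR_60241 (chr2:9797490-9797789) lie in introns of Gata3. Their response to stimulation differed between genotypes at FDR below 0.05, which at OCR_60238 did not hold in 14 of 21 alternative fits. OCR_60244 (chr2:9801008-9801307) had the smallest p between genotypes at Gata3, and OCR_104045 (chr7:132724761-132725060), downstream of Il4ra, was the most accessible member. Each line gives the central 300 bases on the plus strand of the chromosome, where capitals mark every GGGAA, the core bound by Ikaros, on either strand. Capitals also mark AGATAA, 1 form of the motif of the zinc finger family to which Gata3 belongs. A site on the minus strand appears as its reverse complement.
OCR_17974: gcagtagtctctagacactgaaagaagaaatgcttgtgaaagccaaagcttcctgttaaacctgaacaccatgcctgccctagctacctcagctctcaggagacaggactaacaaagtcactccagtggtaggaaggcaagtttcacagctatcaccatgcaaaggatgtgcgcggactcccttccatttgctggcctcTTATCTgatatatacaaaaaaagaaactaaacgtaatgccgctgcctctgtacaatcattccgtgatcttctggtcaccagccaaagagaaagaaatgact
OCR_17975: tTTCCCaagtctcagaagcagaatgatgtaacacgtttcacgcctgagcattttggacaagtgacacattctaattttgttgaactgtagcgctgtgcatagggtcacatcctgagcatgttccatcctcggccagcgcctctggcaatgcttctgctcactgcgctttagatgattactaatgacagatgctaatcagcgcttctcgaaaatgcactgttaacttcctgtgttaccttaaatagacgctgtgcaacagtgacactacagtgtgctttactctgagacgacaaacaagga
OCR_60238: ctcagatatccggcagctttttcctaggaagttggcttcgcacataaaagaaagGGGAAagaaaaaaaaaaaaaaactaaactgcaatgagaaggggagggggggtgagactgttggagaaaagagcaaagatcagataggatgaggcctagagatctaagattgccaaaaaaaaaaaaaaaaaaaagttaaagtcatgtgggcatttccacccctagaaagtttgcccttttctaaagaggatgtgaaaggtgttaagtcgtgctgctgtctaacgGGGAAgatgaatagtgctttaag
OCR_60241: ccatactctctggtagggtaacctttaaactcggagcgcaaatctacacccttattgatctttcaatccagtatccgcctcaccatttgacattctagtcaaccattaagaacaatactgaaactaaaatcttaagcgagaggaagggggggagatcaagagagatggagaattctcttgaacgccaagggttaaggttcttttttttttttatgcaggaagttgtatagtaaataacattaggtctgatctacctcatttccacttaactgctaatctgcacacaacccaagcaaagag
OCR_60244: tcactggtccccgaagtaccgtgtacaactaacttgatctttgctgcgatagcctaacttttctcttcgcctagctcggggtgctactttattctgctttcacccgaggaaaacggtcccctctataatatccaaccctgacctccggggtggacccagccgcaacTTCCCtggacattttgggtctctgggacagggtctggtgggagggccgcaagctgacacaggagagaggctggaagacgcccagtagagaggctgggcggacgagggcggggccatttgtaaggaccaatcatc
OCR_104045: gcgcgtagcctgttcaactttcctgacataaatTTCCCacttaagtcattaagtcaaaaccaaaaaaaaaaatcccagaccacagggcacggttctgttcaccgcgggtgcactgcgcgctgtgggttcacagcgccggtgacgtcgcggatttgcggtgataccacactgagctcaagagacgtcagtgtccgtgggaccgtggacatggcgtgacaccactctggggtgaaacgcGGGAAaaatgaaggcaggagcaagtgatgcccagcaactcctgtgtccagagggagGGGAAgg
OCR_104045 held 3 copies of the Ikaros core, OCR_60238 held 2, OCR_17975 and OCR_60244 held 1 each, and OCR_17974 and OCR_60241 held none. OCR_17974 held the 1 AGATAA among these windows, and other forms of the GATA motif were not searched.

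Library totals ranged from 4808916 to 8596567 reads on regions in WT Treg and from 9221901 to 15355521 in Ikzf1-cko Treg, so that low values were less precise in WT. The share of reads on the strongest quintile of tested regions, those with the highest mean counts scaled to library depth (CPM), was 57.3 to 61.3% in ex vivo WT, 62.2 to 64.6% in ex vivo Ikzf1-cko, 48.2 to 51.4% in stimulated WT and 60.6 to 63.7% in stimulated Ikzf1-cko Treg. Of 6 fixed Treg and CD4 T cell markers, 5 had a region over a start site, Foxp3 among them, with group means of 10.2 to 63.2 FPKM, and Ikzf2 had none. None of 4 B cell markers and none of 4 mast cell and basophil markers had such a region, and 1 of 4 myeloid markers (Cd14) did. The summed level of the CD8 T and NK cell markers, of which 3 of 4 had a region and Ncr1 had none, was 25.3 to 29.2 FPKM in ex vivo WT against 16.1 to 21.0 FPKM in ex vivo Ikzf1-cko libraries, and 25.5 to 28.8 against 18.3 to 22.0 FPKM after stimulation. The markers did not move together ex vivo. Group means in WT and Ikzf1-cko were 8.4 and 3.6 FPKM for Cd8a, 13.4 and 8.9 for Cd8b1, and 5.0 and 5.4 for Klrb1c. After stimulation they were 9.5 and 5.8, 11.8 and 9.5, and 5.9 and 5.0 FPKM in the same order. Fewer cells with an open region and less opening per cell cannot be told apart in such libraries. None of the 28 tested regions over Ikzf1 was called lower in Ikzf1-cko Treg in both states, so that accessibility there does not check the genotype labels.

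Between genotypes no member passed both thresholds. In ex vivo Treg edgeR called 0 of 39 tested members, where it called 4.63% of all tested regions, and DESeq2 and limma called 0 as well. At FDR below 0.05 alone, 7 members were higher and 2 lower in Ikzf1-cko Treg, against 8.78% and 12.7% of all tested regions, and 12 members had an unadjusted p under 0.05. Of these 9 members, OCR_17975 reached the count filter in 4 libraries, all Ikzf1-cko, and OCR_104042 in 4, all WT, so that both were tested only through the genotype in which they were higher. In stimulated Treg edgeR called 0 members against 21.3% of all tested regions, DESeq2 and edgeR with TMM scaling called 1 (the Gata3 intron region OCR_60238), and limma called 0. At FDR below 0.05, 10 members were higher and 2 lower (background 20.4% and 30.7%), and 15 had an unadjusted p under 0.05. The median log2 fold change of the tested members was 0.11 ex vivo and 0.16 after stimulation, where the median of all tested regions was −0.13 and −0.11. With TMM scaling, which moved the median of all ex vivo fold changes by 0.117, 10 members were higher and 0 lower ex vivo, and the background was 14.4% and 8.7%. After stimulation the TMM counts were 12 higher and 0 lower, where the background was 23.3% and 28.3%. DESeq2 size factors moved the stimulated median by 0.104, with 10 members higher and 0 lower and a background of 21.7% and 24.2%.

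Stimulation lowered members more often than it raised them. In WT Treg 3 members were called, all lower and all at Il4ra, against 20% of all tested regions. At FDR below 0.05, 0 members were higher and 12 lower in stimulated WT, where 26.9% of all tested regions were higher and 20.7% lower. In Ikzf1-cko Treg 2 members were called, both lower and at Il4ra, against a background of 3.65%, and at FDR below 0.05, 3 were higher and 8 lower (background 12% and 11.5%), or 1 and 9 with TMM scaling (background 8.8% and 13.5%). The median change was −0.21 in WT and −0.10 in Ikzf1-cko Treg, against 0.04 and 0.06 for all tested regions. The response to stimulation differed between genotypes at FDR below 0.05 in 3 members, all at Gata3 and all with the higher response in Ikzf1-cko Treg, where 5.66% of all tested regions had a higher and 1.82% a lower one, or 2.8% and 2.2% with TMM scaling. None of these 3 passed both thresholds by edgeR, DESeq2 or limma (background 1.98%), and 7 members had an unadjusted p under 0.05. These comparisons share libraries and are not independent of each other.

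Summed over its regions, as reads over summed length, Il4ra was the most accessible gene ex vivo (30.5 ± 1.08 FPKM in WT and 32.5 ± 1.81 in Ikzf1-cko, SD, n = 3) and Gata3 came next. After stimulation Il4ra and Gata3 had 18.8 ± 2.02 and 15.9 ± 1.43 FPKM in WT, and 20.8 ± 0.76 and 23.5 ± 0.91 FPKM in Ikzf1-cko Treg, where Gata3 stood above Il4ra. Il5 followed with group means of 13.8 to 16.0 FPKM, then Rad50 with 8.39 to 11.8. Il5 and Gata3 overlapped in stimulated WT Treg. Il4 had 6.42 ± 0.39 FPKM in WT and 6.14 ± 0.49 in Ikzf1-cko Treg ex vivo, and 8.15 ± 0.63 and 6.87 ± 0.53 FPKM after stimulation. Il13 had 6.17 ± 0.66 and 4.94 ± 0.33 FPKM ex vivo, and 8.43 ± 1.65 and 6.49 ± 0.60 FPKM after stimulation, in the same order. Il4 and Il13 were the lowest in each group and differed from each other by less than 1 SD except in ex vivo Ikzf1-cko Treg, where Il13 was lower. Neighboring genes share regions, and these sums were not tested.

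At the cytokine locus accessibility was low, and no tested region of Il4 or Il13 differed at FDR below 0.05 in any comparison. The 13 regions had mean levels of 4.71 to 17.2 FPKM over all libraries, with a median of 8.31, whereas the median was 13.3 FPKM at Gata3 and 21.1 FPKM at Il4ra. The 10 tested regions held 8 to 269 reads per library, which limits the differences that could be detected here. The region over annotated start sites of Il4, OCR_17970 (chr11:53430657-53431105), had 4.71, 3.84 and 3.37 FPKM in the ex vivo WT libraries, 3.34, 3.88 and 4.38 in ex vivo Ikzf1-cko, 4.79, 5.70 and 4.17 in stimulated WT and 7.97, 4.99 and 5.44 in stimulated Ikzf1-cko Treg. The genotypes overlapped in both states, and the ex vivo and stimulated libraries overlapped in WT but not in Ikzf1-cko Treg. With 9 to 33 reads per library it did not reach the filter and was not tested.

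The region nearest to the start site of Il13, OCR_17973 (chr11:53449535-53450136), lay 1.3 kb upstream of the gene. Its levels were 5.11, 6.16 and 4.83 FPKM in ex vivo WT, 4.54, 4.11 and 3.41 in ex vivo Ikzf1-cko, 6.04, 9.41 and 7.60 in stimulated WT and 5.94, 6.42 and 5.50 in stimulated Ikzf1-cko Treg. The ex vivo genotypes did not overlap, and the stimulated libraries overlapped with the ex vivo ones in WT but not in Ikzf1-cko Treg. The change with stimulation did not pass the test in either genotype (0.51 ± 0.27 SE, FDR = 0.12 in WT, and 0.55 ± 0.24 SE, FDR = 0.092 in Ikzf1-cko). OCR_17971 (chr11:53441351-53441736), between Il4 and Il13, was the strongest region assigned to either cytokine gene, with group means of 11.7 ± 0.26 (SD, n = 3) FPKM in ex vivo WT, 9.34 ± 1.6 in ex vivo Ikzf1-cko, 12 ± 4.25 in stimulated WT and 8.68 ± 0.83 in stimulated Ikzf1-cko Treg. None of its comparisons passed the test, though the stimulated genotypes differed without stimulated WT replicate 1 (FDR = 0.033). The untested region OCR_17972 (chr11:53444494-53444810), directly past the 3′ end of Il13 and named after its values were seen, had 4.25, 5.85 and 2.20 FPKM in ex vivo WT and 12, 10.9 and 8.53 FPKM in stimulated WT libraries. It had 5.47, 4.50 and 6.05 FPKM in stimulated Ikzf1-cko libraries. Stimulated WT lay above both other groups, but no library held more than 23 reads there. In a fit without the filter on low counts it was called higher in stimulated than in ex vivo WT Treg, and it was lower in stimulated Ikzf1-cko than in stimulated WT Treg (−0.97, FDR = 0.021).

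The other regions of Il4 lay over or downstream of the gene. OCR_17967 (chr11:53403840-53404326), in an exon of the neighboring Kif3a, had the smallest p of the Il4 regions between stimulated genotypes, with 12 ± 1.6 (SD, n = 3) FPKM in WT and 8.97 ± 1.4 FPKM in Ikzf1-cko Treg (log2 fold change −0.42 ± 0.21 SE, FDR = 0.097). OCR_17969 (chr11:53423095-53423639), in an exon of the longest Il4 transcript, had the smallest p of the Il4 regions between ex vivo genotypes, with 5.43 ± 1.15 against 7.13 ± 0.71 FPKM (0.43 ± 0.24 SE, FDR = 0.19). At Il5, a cytokine gene that acts on eosinophils, the region nearest to the start site was that of the Rad50 promoter. Both other Il5 regions lay more than 10 kb downstream of the gene, with group means of 11.5 to 15.3 FPKM and no comparison that passed.

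**Figure D1:**
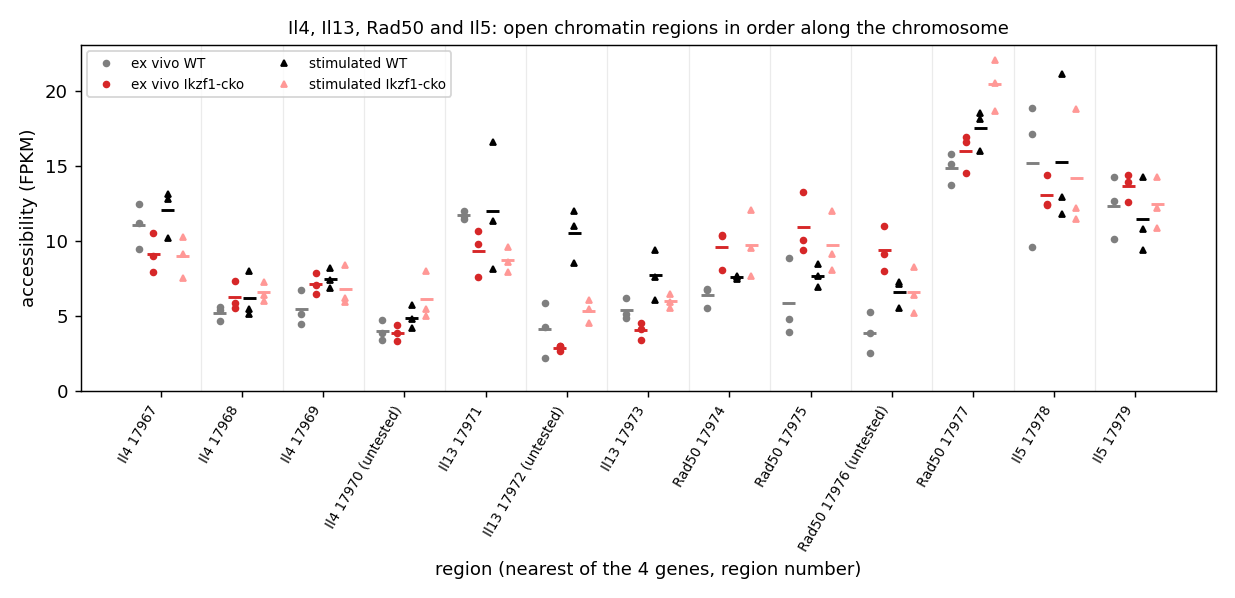
Accessibility (FPKM, y axis) of the 13 regions at the cytokine locus in order along chromosome 11 (x axis, region number with the nearest of the 4 genes). Each point is 1 library, short bars are group means of 3 libraries, and "untested" marks regions under the count filter. At the Rad50 intron regions OCR_17974, OCR_17975 and OCR_17976 the ex vivo Ikzf1-cko points lie above all ex vivo WT points. The share of all regions that separate in this way was not counted.

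At 3 regions in Rad50 introns the ex vivo genotypes did not overlap. The share of all tested regions without overlap was not counted, so the separation is given as description only. OCR_17974 (chr11:53470125-53470748), 50.4 kb from the Rad50 start and with 18 to 99 reads per library, is a region that the naming rule did not pick and that was chosen after its values were seen. Its levels were 5.55, 6.79 and 6.71 FPKM in ex vivo WT and 10.3, 10.4 and 8.08 FPKM in ex vivo Ikzf1-cko libraries. The region was higher in Ikzf1-cko Treg (0.58 ± 0.20 SE, FDR = 0.034). OCR_17975 (chr11:53476313-53476702), 44.3 kb from the start, had 3.95, 8.83 and 4.77 FPKM in ex vivo WT and 9.35, 13.2 and 10.1 FPKM in ex vivo Ikzf1-cko libraries. Again all Ikzf1-cko libraries lay above all WT libraries, with a log2 fold change of 0.86 ± 0.27 SE. Its FDR of 0.022 is no support for a difference, since the 4 libraries through which it reached the filter were all Ikzf1-cko. The neighboring OCR_17976 (chr11:53476771-53477073), also chosen after its values were seen, had 2.54, 5.25 and 3.84 against 7.95, 9.12 and 11 FPKM without overlap, but its 4 to 39 reads per library kept it from the test. In a fit without the filter it was called higher in Ikzf1-cko Treg.

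After stimulation the difference between genotypes did not pass at these regions. OCR_17974 had 7.42, 7.61 and 7.67 FPKM in WT and 7.65, 12.1 and 9.5 FPKM in Ikzf1-cko Treg (0.37 ± 0.21 SE, FDR = 0.15). OCR_17975 had 7.63, 8.43 and 6.93 against 12, 9.13 and 8.05 FPKM (0.32 ± 0.29 SE, FDR = 0.36). It passed with loess scaling (0.82, FDR = 0.026), which is no support for a difference, since it reached the filter in Ikzf1-cko libraries alone. OCR_17976 had 7.09, 7.24 and 5.49 against 8.23, 6.38 and 5.18 FPKM. For OCR_17975 the difference between the responses to stimulation was −0.54 ± 0.40 SE (FDR = 0.42), so that a genotype effect that changes with stimulation was not shown. The ex vivo differences rested on few reads, and no FDR of OCR_17975 between genotypes is support for one. Without 1 of ex vivo WT replicate 1, ex vivo WT replicate 3 or ex vivo Ikzf1-cko replicate 2 the FDR of OCR_17975 was 0.11, 0.10 and 0.14, and after thinning to the smallest library it was 0.076. OCR_17974 had an FDR of 0.061 to 0.12 when any 1 of the ex vivo libraries other than Ikzf1-cko replicate 3 was left out, and of 0.072 in DESeq2.

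The promoter of Rad50, OCR_17977 (chr11:53520134-53521189), was the most accessible region of the locus. It had 15.1, 13.7 and 15.8 FPKM in ex vivo WT, 16.6, 14.5 and 16.9 in ex vivo Ikzf1-cko, 16.0, 18.5 and 18.1 in stimulated WT and 20.5, 22.1 and 18.7 in stimulated Ikzf1-cko Treg. The stimulated libraries lay above the ex vivo ones in both genotypes, and the rise passed the test in Ikzf1-cko Treg (0.35 ± 0.10 SE, FDR = 0.014). In WT Treg it was 0.23 ± 0.13 SE (FDR = 0.14), and the responses did not differ between genotypes by the test (0.11 ± 0.17 SE, FDR = 0.71). The rise in Ikzf1-cko Treg did not pass with TMM scaling (0.29, FDR = 0.064), in either limma fit (FDR = 0.064 and 0.063), in DESeq2 (FDR = 0.092) or without ex vivo or stimulated Ikzf1-cko replicate 2 (FDR = 0.099 and 0.086). With loess scaling, which sets the fold change to 0 on average at every region strength, the rise passed in both genotypes (0.47, FDR = 0.0040 in WT and 0.40, FDR = 0.0033 in Ikzf1-cko).

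Regions of Gata3 were more accessible in Ikzf1-cko than in WT Treg after stimulation. Of its 22 regions, 16 were tested and 13 lay over the gene, which runs on the minus strand at chr2:9778705-9811661. The annotation gives the 5′ end of the longest transcript at 9811661 and an inner start site at 9800227, and distances are given from the former. Between stimulated genotypes 8 of 16 tested regions were higher in Ikzf1-cko Treg and 2 were lower at FDR below 0.05 (background 20.4% and 30.7%), and all 8 were among the 12 tested regions over the gene. Between ex vivo genotypes 4 were higher and 0 lower (background 8.78% and 12.7%). The ex vivo count was 1 without ex vivo WT replicate 1, ex vivo WT replicate 2 or ex vivo Ikzf1-cko replicate 1, and 2 without ex vivo Ikzf1-cko replicate 2 or after thinning. The level over all 22 regions was 19.9 ± 1.5 (SD, n = 3) FPKM in ex vivo WT, 23.0 ± 2.0 in ex vivo Ikzf1-cko, 15.9 ± 1.4 in stimulated WT and 23.5 ± 0.91 in stimulated Ikzf1-cko Treg.

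OCR_60244 (chr2:9800781-9801534), just upstream of the inner start site, had the smallest p between genotypes in both states. Its levels were 41.9, 49.0 and 46.6 FPKM in ex vivo WT, 59.9, 61.4 and 61.9 in ex vivo Ikzf1-cko, 39.7, 41.0 and 38.9 in stimulated WT and 66.2, 64.7 and 70.4 in stimulated Ikzf1-cko Treg. The genotypes did not overlap in either state. The log2 fold change was 0.41 ± 0.08 SE ex vivo (FDR = 0.00057) and 0.75 ± 0.09 SE after stimulation (FDR = 1.3e-07), and both passed under every alternative tried, with FDR up to 0.011 and 0.00029. The region over the inner start site itself, OCR_60243 (chr2:9799962-9800619), had 37.4, 41.7 and 44.0 FPKM in ex vivo WT, 47.7, 49.4 and 44.0 in ex vivo Ikzf1-cko, 23.6, 30.5 and 28.8 in stimulated WT and 40.7, 43.9 and 46.1 in stimulated Ikzf1-cko Treg. The stimulated WT libraries stood below all others. The region was higher in stimulated Ikzf1-cko than in stimulated WT Treg (0.67 ± 0.11 SE, FDR = 2.3e-05) and fell with stimulation in WT (−0.59 ± 0.12 SE, FDR = 0.00021).

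**Figure D2:**
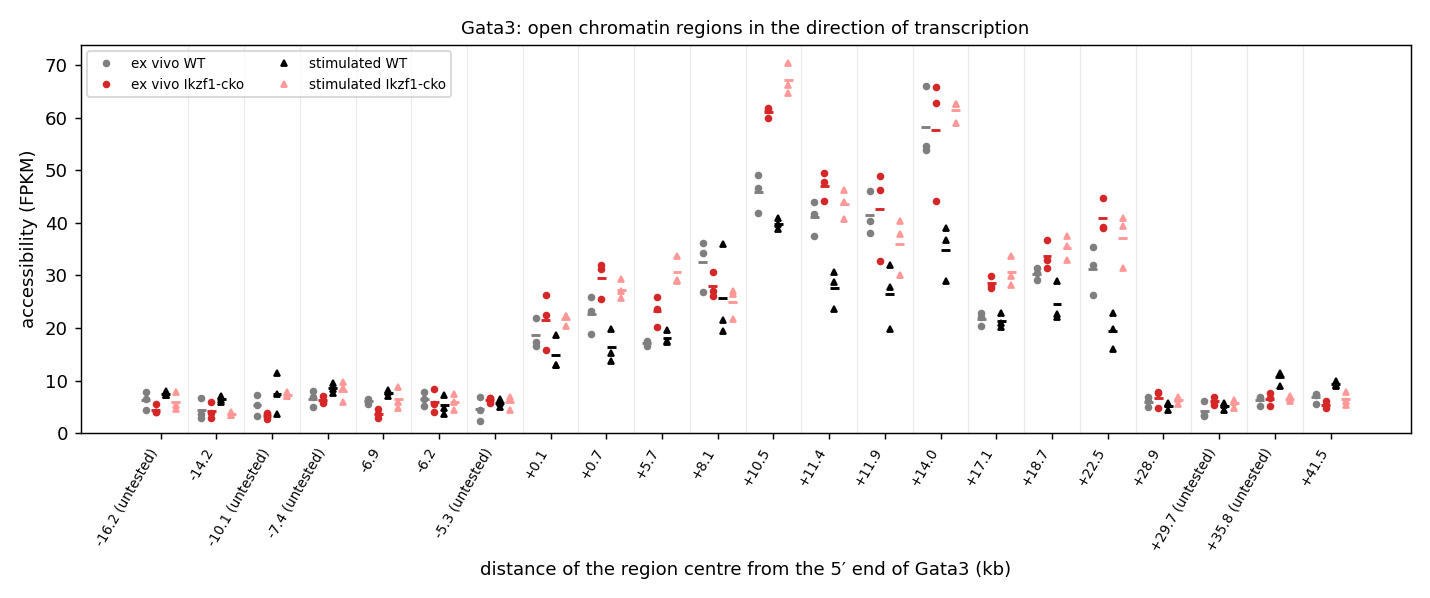
Accessibility (FPKM, y axis) of the 22 Gata3 regions, ordered by the distance of their centre from the 5′ end of the gene in the direction of transcription (kb, x axis). Each point is 1 library and short bars are means of 3 libraries. Between 10.5 and 22.5 kb the stimulated WT libraries (black triangles) lie at the lower end of most regions, whereas the regions outside the gene stay under 12 FPKM in all groups.

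The intronic region 14.0 kb into the gene, OCR_60241 (chr2:9797359-9797919), had the clearest difference in the response to stimulation. Its levels were 54.5, 53.8 and 65.9 FPKM in ex vivo WT, 65.8, 62.7 and 44.2 in ex vivo Ikzf1-cko, 28.9, 39.1 and 36.7 in stimulated WT and 62.6, 59.0 and 62.5 in stimulated Ikzf1-cko Treg. The 3 stimulated WT libraries lay below the 9 others. It fell in WT (−0.75 ± 0.14 SE, FDR = 8.7e-05), was 0.08 ± 0.11 SE in Ikzf1-cko Treg (FDR = 0.62), and the responses differed by 0.84 ± 0.18 SE (FDR = 0.0037). That difference passed under every alternative run for it, with FDR up to 0.032. Between genotypes it was higher in stimulated Ikzf1-cko Treg (0.82 ± 0.13 SE, FDR = 1.4e-05), with −0.01 ± 0.12 SE ex vivo (FDR = 0.94).

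OCR_60238 (chr2:9788778-9789554), 22.5 kb into the gene and named after its values were seen, had 26.2, 32.1 and 35.3 FPKM in ex vivo WT, 44.8, 39.1 and 39 in ex vivo Ikzf1-cko, 16.0, 19.8 and 22.8 in stimulated WT and 31.4, 39.3 and 40.9 in stimulated Ikzf1-cko Treg. The genotypes did not overlap in either state, and stimulated WT lay below ex vivo WT. It had the largest fold change between genotypes among the tested members after stimulation (0.95 ± 0.14 SE, FDR = 2.1e-06) and was higher ex vivo as well (0.37 ± 0.11 SE, FDR = 0.018). The ex vivo difference did not pass in either limma fit (FDR = 0.062 and 0.064) or without ex vivo WT replicate 1 or 2 or ex vivo Ikzf1-cko replicate 1 (FDR = 0.12, 0.062 and 0.096). The response to stimulation differed by 0.58 ± 0.18 SE (FDR = 0.043) here and by 0.48 ± 0.15 SE (FDR = 0.046) at OCR_60243. Neither passed with TMM scaling (FDR = 0.10 and 0.12), with loess scaling (FDR = 0.18 and 0.24), in DESeq2 (FDR = 0.12 and 0.13) or with the replicate number as a block. In all, these differences did not pass in 14 and 15 of 21 alternatives. Neither passed without ex vivo WT replicate 2 or 3, stimulated WT replicate 1, or stimulated Ikzf1-cko replicate 2 or 3 (FDR from 0.09 to 0.18 and from 0.087 to 0.19), and 1 of them did not without ex vivo Ikzf1-cko replicate 2 (OCR_60238, FDR = 0.071), ex vivo Ikzf1-cko replicate 3 (OCR_60243, FDR = 0.081) or stimulated WT replicate 3 (OCR_60243, FDR = 0.070).

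OCR_60246 (chr2:9805789-9806179), 5.7 kb into the gene and within the overlapping 9230102O04Rik, had 17.2, 16.6 and 17.6 FPKM in ex vivo WT, 25.8, 23.6 and 20.1 in ex vivo Ikzf1-cko, 17.3, 19.6 and 17.6 in stimulated WT and 28.8, 29.1 and 33.7 in stimulated Ikzf1-cko Treg. It was higher in Ikzf1-cko Treg ex vivo (0.44 ± 0.15 SE, FDR = 0.037) and after stimulation (0.75 ± 0.16 SE, FDR = 0.00028), and it rose with stimulation in Ikzf1-cko Treg (0.39 ± 0.13 SE, FDR = 0.026). The ex vivo difference did not pass when any 1 of 5 ex vivo libraries was left out (all but Ikzf1-cko replicate 3, FDR from 0.069 to 0.16), in DESeq2 (FDR = 0.065) or after thinning (FDR = 0.16). The rise did not pass with TMM scaling (FDR = 0.079), in DESeq2 (FDR = 0.18), after thinning (FDR = 0.28) or without ex vivo Ikzf1-cko replicate 2 or 3 or stimulated Ikzf1-cko replicate 3 (FDR = 0.066, 0.084 and 0.14). OCR_60239 (chr2:9792783-9793206), 18.7 kb into the gene and likewise chosen after its values were seen, was higher in stimulated Ikzf1-cko Treg, with 35.3 ± 2.3 (SD, n = 3) against 24.5 ± 3.8 FPKM (0.53 ± 0.14 SE, FDR = 0.0025). OCR_60247 (chr2:9810539-9811448), over the start site of 9230102O04Rik at the 5′ end of Gata3 and chosen in the same way, was higher in Ikzf1-cko Treg after stimulation (0.75 ± 0.14 SE, FDR = 5.9e-05). Ex vivo its difference was 0.37 ± 0.12 SE (FDR = 0.025), and it did not pass in 7 of 22 alternatives, with FDR up to 0.16. These were the fits without ex vivo WT replicate 1 or 2 or ex vivo Ikzf1-cko replicate 1 or 2 (FDR = 0.15, 0.080, 0.088 and 0.12), both limma fits and the thinned counts. OCR_60248 (chr2:9811479-9811733), over the start of the longest Gata3 transcript, had 14.9 ± 3.2 FPKM in stimulated WT and 21.7 ± 1.1 FPKM in stimulated Ikzf1-cko Treg, which did not pass (0.54 ± 0.23 SE, FDR = 0.052), though it passed in 9 of 21 alternatives, TMM and loess scaling among them (FDR = 0.027 and 0.020). Both regions lower in stimulated Ikzf1-cko Treg lay outside the gene, were weak and were also named after their values were seen. OCR_60234 (chr2:9769903-9770505), 8.2 kb past the 3′ end, had 6.46 ± 1.3 against 9.38 ± 0.54 FPKM (−0.54 ± 0.22 SE, FDR = 0.043). OCR_60254 (chr2:9825500-9826132), 13.8 kb upstream, had 3.70 ± 0.36 against 6.44 ± 0.58 FPKM (−0.81 ± 0.33 SE, FDR = 0.041). With loess scaling the value at OCR_60254 turned to 0.05 (FDR = 0.93) and that at OCR_60234 was −0.26 (FDR = 0.40), and neither passed when any 1 of 5 stimulated libraries was left out (all but Ikzf1-cko replicate 1, FDR from 0.059 to 0.14). In all OCR_60234 did not pass in 10 of 21 alternatives and OCR_60254 in 11 of 21, TMM scaling, thinning and DESeq2 among them for both. OCR_60254 reached the count filter in 4 WT libraries and 1 Ikzf1-cko library.

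The strength of a region moved with its change in the same comparisons. In stimulated Treg the median log2 fold change between genotypes was −1.41 in the weakest quintile of all tested regions and 0.32 in the strongest quintile, where 61.9% of regions were higher in Ikzf1-cko Treg at FDR below 0.05. In that quintile 5 of 5 Gata3 regions were higher, with a median of 0.75. Ex vivo 3 of these 5 were higher, where 22.8% of that quintile was, and with stimulation in WT 4 of 5 were lower, where 50.1% of the quintile was. The difference in response passed in 3 of 5, against 19.6% of that quintile. With loess scaling 9 of 16 Gata3 regions were higher and 0 lower in stimulated Ikzf1-cko Treg, 4 were higher and 0 lower ex vivo, and 4 fell with stimulation in WT. In that scaling the genotype difference was 0.41 (FDR = 0.00029) at OCR_60244, 0.51 (FDR = 0.0020) at OCR_60241 and 0.66 (FDR = 0.00016) at OCR_60238. The part of library makeup and of the CD8 T and NK cell markers in the remaining differences was not tested.

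**Figure D3:**
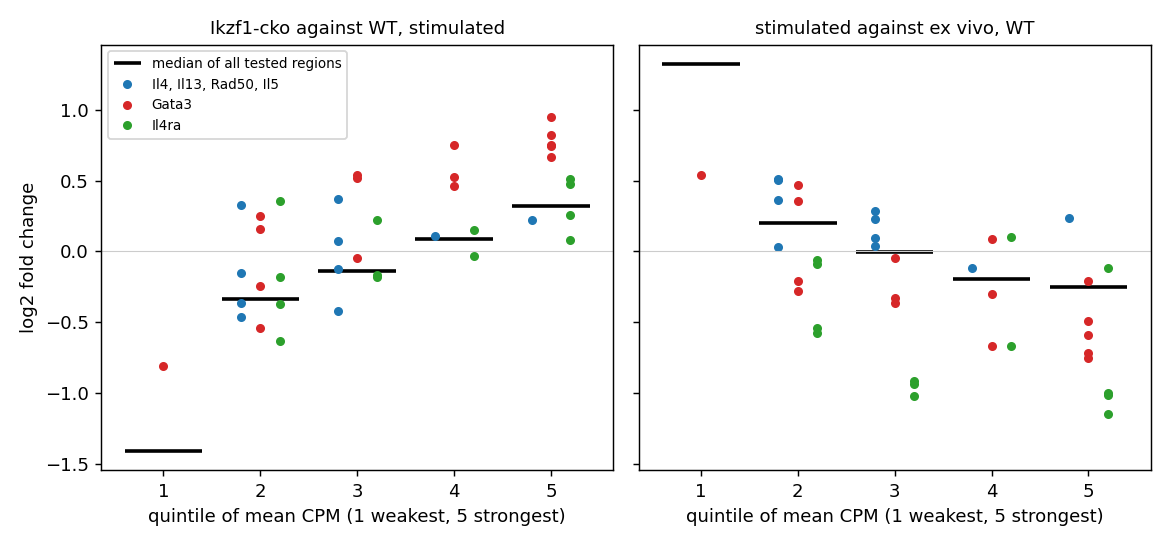
Log2 fold change (y axis) of the 39 tested members by quintile of mean CPM of all tested regions (x axis, 1 weakest to 5 strongest), for Ikzf1-cko against WT after stimulation (left) and for stimulated against ex vivo WT (right). Points are regions colored by gene, and black bars are the medians of all tested regions of that quintile. The Gata3 points of quintile 5 lie above the bar of 0.32 on the left, and the Il4ra points reach below the others on the right.

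Regions at Il4ra lost accessibility with stimulation in both genotypes. The gene runs on the plus strand at chr7:132695785-132722986, and 8 of its 16 regions lie past its 3′ end, toward Il21r. Of the 7 tested regions there, 5 fell in WT and 6 in Ikzf1-cko Treg at FDR below 0.05, and 2 of 6 tested regions over the gene fell in each genotype, where 20.7% of all tested regions fell in WT and 11.5% in Ikzf1-cko Treg. Of the 6, OCR_104047 reached the count filter in 5 libraries, all ex vivo, so that it was tested only through the state in which it was higher (FDR = 0.043 in Ikzf1-cko and 0.084 in WT Treg). Of the strongest quintile, 3 of 4 Il4ra regions fell in each genotype, where 50.1% of that quintile fell in WT and 22.9% in Ikzf1-cko Treg.

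OCR_104045 (chr7:132724446-132725375), 1.5 kb past the end of Il4ra and 21.6 kb before Il21r, was the strongest member. It had 69.1, 65.1 and 72.2 FPKM in ex vivo WT, 80.0, 89.7 and 81.1 in ex vivo Ikzf1-cko, 30.1, 39.7 and 33.8 in stimulated WT and 34.6, 37.6 and 37.0 in stimulated Ikzf1-cko Treg. Stimulated libraries lay far below ex vivo libraries in both genotypes. The fall was −1.20 ± 0.08 SE in Ikzf1-cko Treg (FDR = 5.1e-12), past both thresholds, and −0.999 ± 0.10 SE in WT (FDR = 1.6e-09), just short of the fold threshold. The responses differed by −0.20 ± 0.13 SE (FDR = 0.34), or by −0.43 with loess scaling (FDR = 0.025). Ex vivo it was higher in Ikzf1-cko Treg (0.28 ± 0.08 SE, FDR = 0.011), which was 0.14 with loess scaling (FDR = 0.14) and did not pass in either limma fit (FDR = 0.050 and 0.052) or without ex vivo WT replicate 2 or ex vivo Ikzf1-cko replicate 2 (FDR = 0.079 and 0.091).

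The adjacent OCR_104044 (chr7:132724125-132724325) was called lower with stimulation in both genotypes. It had 44.0, 39.5 and 43.4 FPKM in ex vivo WT, 45.7, 44.5 and 42.1 in ex vivo Ikzf1-cko, 14.0, 20.9 and 29.0 in stimulated WT and 18.3, 16.2 and 20.4 in stimulated Ikzf1-cko Treg, without overlap between states. The change was −1.02 ± 0.21 SE in WT (FDR = 0.00029) and −1.26 ± 0.17 SE in Ikzf1-cko Treg (FDR = 2.8e-06). OCR_104046 (chr7:132732127-132732826), 9.1 kb past the gene, had 48.6, 41.1 and 45.2 FPKM in ex vivo WT, 46.4, 49.7 and 43.4 in ex vivo Ikzf1-cko, 16.3, 25.1 and 19.3 in stimulated WT and 30.4, 23.0 and 32.4 in stimulated Ikzf1-cko Treg. It was called lower in WT (−1.15 ± 0.14 SE, FDR = 2e-07) and fell by 0.70 ± 0.11 SE in Ikzf1-cko Treg (FDR = 2.6e-05), and the difference of 0.45 ± 0.18 SE between the responses did not pass (FDR = 0.12). Between stimulated genotypes it was higher in Ikzf1-cko Treg (0.51 ± 0.14 SE, FDR = 0.0041), which was 0.23 with loess scaling (FDR = 0.22) and did not pass without stimulated WT replicate 1 (FDR = 0.063).

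Within the gene, the intronic OCR_104041 (chr7:132704585-132705208) had 31.8, 30.1 and 39.1 FPKM in ex vivo WT, 34.0, 35.5 and 33.0 in ex vivo Ikzf1-cko, 13.5, 21.1 and 16.0 in stimulated WT and 25.2, 23.0 and 22.1 in stimulated Ikzf1-cko Treg. The stimulated libraries lay below the ex vivo ones in both genotypes, and stimulated WT lay below stimulated Ikzf1-cko. It was called lower in WT (−1.01 ± 0.15 SE, FDR = 3.6e-06) and fell by 0.55 ± 0.12 SE in Ikzf1-cko Treg (FDR = 0.00083). After stimulation it was higher in Ikzf1-cko than in WT Treg (0.48 ± 0.15 SE, FDR = 0.0095), but not with loess scaling (0.26, FDR = 0.18) or without stimulated WT replicate 1 (FDR = 0.12). Without ex vivo WT replicate 3 or without stimulated WT replicate 1, OCR_104046 was the 1 member still called in WT, and with loess scaling none was, with −0.78, −0.97 and −0.91 at OCR_104041, OCR_104044 and OCR_104046 and FDR up to 0.00082. Both members lower in ex vivo Ikzf1-cko Treg were at Il4ra, and neither passed with TMM scaling. OCR_104042 (chr7:132719299-132719613), in an exon, had 12.8, 13.9 and 14.4 against 9.30, 7.84 and 8.68 FPKM, with a log2 fold change of −0.67 ± 0.25 SE. Its FDR of 0.0495 is no support for a difference, since the 4 libraries through which it reached the filter were all WT, and it did not pass in 14 of 21 alternatives. Among these were loess scaling (FDR = 0.27), the replicate block (FDR = 0.065) and each fit without 1 of ex vivo WT replicates 1, 2 and 3 or ex vivo Ikzf1-cko replicates 1 and 2 (FDR from 0.080 to 0.15). OCR_104043 (chr7:132723428-132723639), 0.4 kb past the gene, had 34.5, 43.8 and 36.8 against 27.0, 30.9 and 23.4 FPKM (−0.50 ± 0.18 SE, FDR = 0.039). Both regions were named after their values were seen, and the groups did not overlap at either. OCR_104043 did not pass when any 1 of 5 ex vivo libraries was left out (all but Ikzf1-cko replicate 2, FDR from 0.052 to 0.21), and in all it did not pass in 12 of 21 alternatives.

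The promoter of Il4ra, OCR_104037 (chr7:132695140-132696211), had 19.6, 22.4 and 27.4 FPKM in ex vivo WT, 27.8, 28.9 and 26.4 in ex vivo Ikzf1-cko, 19.8, 18.8 and 27.0 in stimulated WT and 22.7, 27.9 and 26.7 in stimulated Ikzf1-cko Treg. The groups overlapped in each comparison and none passed, with −0.12 ± 0.13 SE (FDR = 0.48) for stimulation in WT and −0.10 ± 0.11 SE (FDR = 0.51) in Ikzf1-cko Treg. Between genotypes the difference was 0.24 ex vivo (FDR = 0.13) and 0.26 after stimulation (FDR = 0.093). Ex vivo it passed with TMM scaling (0.36, FDR = 0.044) and without ex vivo WT replicate 3 (0.39, FDR = 0.033), and after stimulation without stimulated WT replicate 3 (FDR = 0.013) or stimulated Ikzf1-cko replicate 1 (FDR = 0.037).

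**Figure D4:**
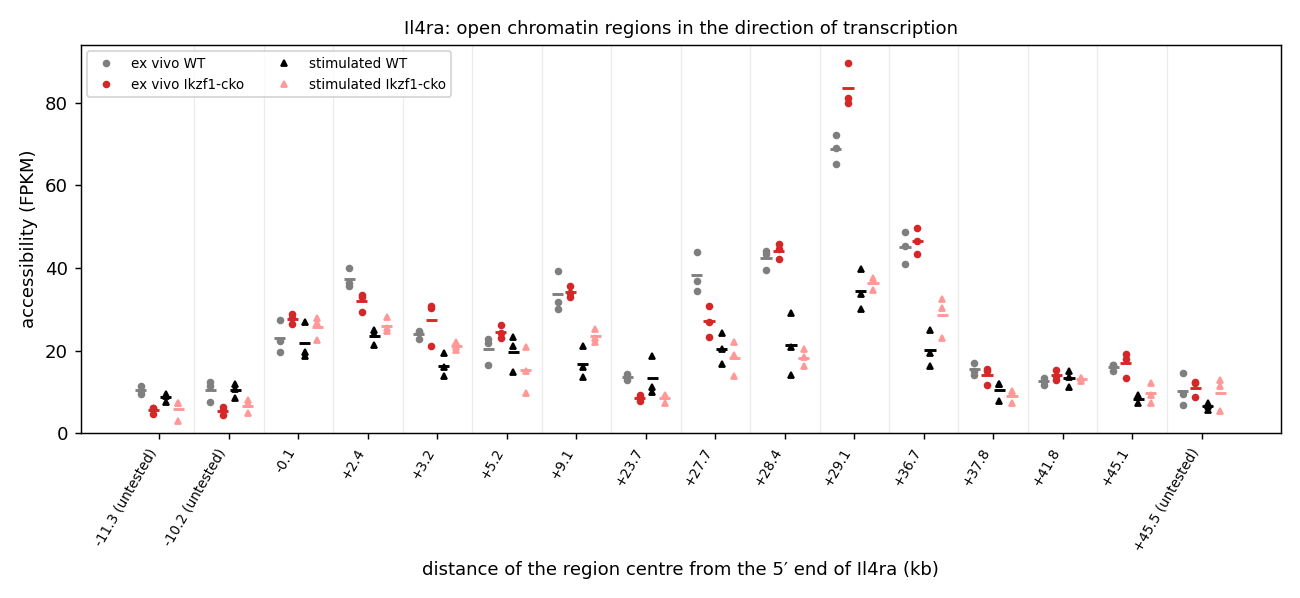
Accessibility (FPKM, y axis) of the 16 Il4ra regions, ordered by the distance of their centre from the 5′ end of the gene (kb, x axis), with points for libraries and short bars for means of 3 libraries. From 27.7 to 36.7 kb the stimulated libraries (triangles) lie below the ex vivo libraries (circles) of the same genotype, and at the promoter (−0.1 kb) they overlap.

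**Figure D5:**
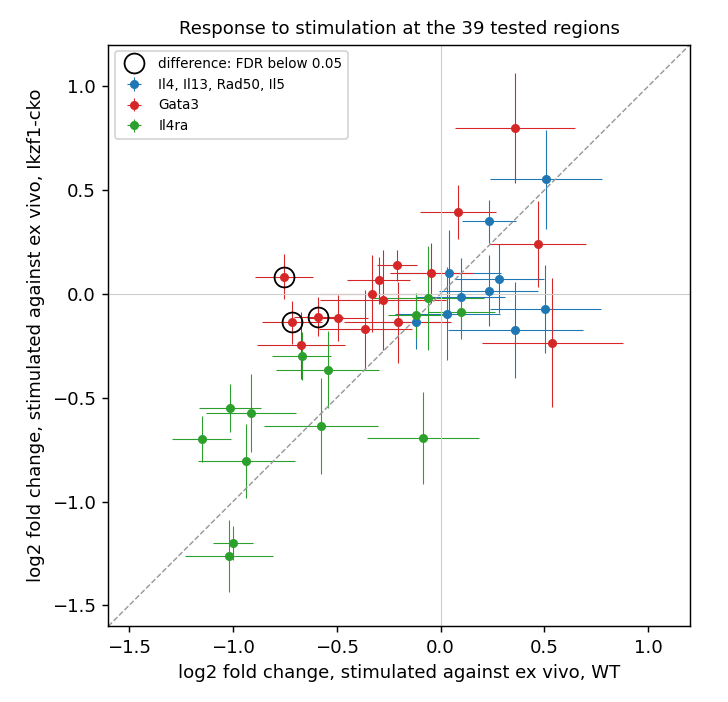
Log2 fold change with stimulation in WT (x axis) and in Ikzf1-cko Treg (y axis) at the 39 tested members, with SE bars, colored by gene. The dashed line marks equal responses, and black circles mark the 3 Gata3 regions whose responses differed at FDR below 0.05, all of them above the line with a fall in WT. The Il4ra points lie toward the lower left in both genotypes.

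Other genes of the Th2 pathway were counted over a list of 39 genes, all found in the annotation, with 346 tested regions. Ex vivo, 62 of these regions were higher and 22 lower in Ikzf1-cko Treg at FDR below 0.05 (background 8.78% and 12.7%), with a median of 0.07 where that of all tested regions was −0.13. After stimulation 91 were higher and 18 lower (background 20.4% and 30.7%), with a median of 0.14 against −0.11. With stimulation 36 were higher and 93 lower in WT (background 26.9% and 20.7%), and 37 were higher and 69 lower in Ikzf1-cko Treg (background 12% and 11.5%), with medians of −0.14 and −0.08 against 0.04 and 0.06. The response was higher in Ikzf1-cko Treg in 13 and lower in 4 (background 5.66% and 1.82%). Background shares moved with region strength. From the weakest to the strongest quintile, the share higher between stimulated genotypes went from 0.91% to 61.9%, and the share lower in stimulated WT from 1.43% to 50.1%. The strength of the listed regions was not counted, so that these counts are not set against regions of like strength. The genes named from this list were chosen after their counts were seen. At the signaling genes, Stat6, which encodes the factor activated by the IL-4 receptor, had 2 higher and 0 lower of 10 tested regions ex vivo and 3 higher and 0 lower after stimulation, and Jak1, a kinase of the receptor, had 21 of 35 regions lower in stimulated WT. Il10, which encodes a suppressive cytokine, had 8 of 9 regions higher in Ikzf1-cko Treg ex vivo. Il3 and Csf2, cytokine genes farther along chromosome 11, had 0 tested regions. Of 13 listed neighbors, 12 were found (Ccni2 was not), with 54 tested regions that were not members. Of these, 3 were higher and 10 lower ex vivo, and 8 were higher and 8 lower after stimulation, against the same background shares as above, with medians of −0.04 and −0.02.

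Summed over the gene and its flanks, the profile of Gata3 across the 12 libraries was most like that of Trp53inp1 (Pearson's r = 0.992), Rpl24 (0.992), Gm11830 (0.991), Kif3c (0.991) and Sh3bgrl (0.991) among 8547 genes, where the median r was 0.385. The profile of Il4 was most like that of Pygm (0.968), Wnt1 (0.967), Shroom1 (0.963), H2-Aa (0.960) and Phospho1 (0.953), with a median of −0.135. These are values of log2(CPM + 1), and the 12 points share depth and the group makeup given above. With regions inside the gene bodies alone, Sh3bgrl was the 1 gene named again for Gata3 and none was for Il4.

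In the central 300 bases, the Ikaros core GGGAA was found on either strand in 29 of 39 tested members, where 59.3% of all tested regions held it. AGATAA was in 4 of 39 members (12.1% of all tested regions) and in 0 of 16 Gata3 regions. The AP-1 site TGANTCA was in 6 (13.8%), the STAT6 spacing of TTC and GAA 4 bases apart in 4 (6.7%), of which 3 were at Gata3, the Runx site TGTGGT in 10 (25.0%) and the forkhead site GTAAACA in 0 (3.8%). Over whole regions, which differ in length, the Ikaros core was in 29 members where 80.8% of all tested regions held it, so that the members stood above the background in the central window and below it over whole regions. The other whole-region counts in the same order were 7, 14, 6, 12 and 1, where the shares of all tested regions were 24.7%, 23.9%, 15.0%, 43.2% and 8.4%. A match describes the letters in the window and not binding.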

How the data were processed

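ATAC-seq libraries of 12 samples were analysed, 3 in each of 4 groups taken from the sample labels. The authors aligned reads with bowtie2 in the ENCODE pipeline, removed duplicates and blacklisted regions, called peaks per replicate with MACS2 and merged them into 1 set of regions. Deposited per region were counts of de-duplicated reads and FPKM, which the authors made by dividing the count by region length and library total, and recomputing FPKM from the counts gave a largest difference of 0. The regions carry mm9 positions. A deposited table of the authors' own comparisons (fold changes, F, p and FDR) was not used, and 0 columns of per-sample values were left unused.

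Counts were fitted with edgeR 4.0.16 (quasi-likelihood test) in R 4.3.3 with library totals as scaling, in 1 model of the 4 groups, after a filter of at least 3.6 CPM in at least 3 libraries. The study's scaling against background bins was not used here. Each SE is the size of the fold change over the root of its F value. P-values were adjusted by Benjamini-Hochberg over all 69957 tested regions. On simulated counts for the ex vivo genotype comparison, 199 of 200 changed regions were recovered with 1 false call among 69957 regions. Recovery was not tested separately for fold changes of the size found at the members, or for regions with few reads. Totals of 4808916 to 15355521 reads set the precision, and tested members held 8 to 1148 reads per library. The paper names 3 biological replicates for each cell type in its ATAC-seq methods. The labels do not say whether libraries of a group came from separate mice, so p-values measure the spread between these libraries.

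Members and lists were chosen with earlier results of these data known. Regions named by rule were those over or nearest to each start site, with the smallest p in each comparison, with the highest mean FPKM, or past both thresholds, and all others were chosen after their values were seen. Alternatives were TMM scaling, loess scaling on abundance (span 0.3), no filter, a filter in all 12 libraries, limma 3.58.1 on log2(FPKM + 1) and log2(FPKM + 0.1), the compared libraries alone, counts thinned to the smallest library, a replicate block, DESeq2 1.42.0 and leaving out each library. The paper states that sorted Treg were divided between stimulation and no stimulation, but which libraries share a sort is not given. Deviations of same-numbered libraries from their group means correlated at −0.39 to 0.30, and 6 of 18 pairs exceeded 0.1. With 3 libraries in a group these correlations cannot exclude pairing, and the main fit treated the groups as unpaired. Sequences and motifs were read from the mm9 genome.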

Additional observations from a re-analysis of the deposited data

Results flagged for a closer look

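At 3 regions of Gata3 the response to stimulation differed between genotypes by the interaction term of edgeR's quasi-likelihood model (FDR below 0.05). These were 3 of 39 tested members, where 5.66% of all tested regions had a higher response in Ikzf1-cko Treg. All 3 lay in the strongest quintile, where 19.6% of regions had one. The log2 response of Ikzf1-cko Treg exceeded that of WT Treg by 0.837 at OCR_60241, by 0.577 at OCR_60238 and by 0.479 at OCR_60243. At all 3 the fall in WT passed the test and the change in Ikzf1-cko Treg did not. The difference at OCR_60241 passed under every alternative run for it, and those at OCR_60238 and OCR_60243 did not pass in 14 and 15 of 21 alternatives, TMM and loess scaling among them. The part that the read makeup of the stimulated WT libraries had in these differences was not tested beyond these scalings.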

How the results depend on the processing

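Over 35 results for single regions and 22 alternatives, 647 of 758 values kept their direction and side of the threshold, 110 kept the direction but no longer passed, and 1 reversed. Leaving out a library of a group outside a pairwise comparison hardly moves its fold change. Many of the 647 values could therefore hardly change, and the same holds for the counts of alternatives given for single regions. The reversed value was the stimulated genotype difference at OCR_60254, which was 0.0494 with loess scaling. The tally leaves out OCR_60247, OCR_104042 and OCR_104047, which are also given above. The ex vivo genotype differences at OCR_60247 and OCR_104042 did not pass in 7 of 22 and 14 of 21 alternatives. The fall of OCR_104047 in Ikzf1-cko Treg did not pass in 8 of 21. The stimulated genotype difference at OCR_60247 passed in 22 of 22, and its fall in WT in 19 of 22. The causes of these changes were not tested.

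Members past both thresholds between ex vivo genotypes numbered 0, against 1 with loess scaling (OCR_17975) and 1 without a filter (OCR_17976), and 0 to 1 when each library was left out (1 without ex vivo WT replicate 2). OCR_17975 reached the filter in Ikzf1-cko libraries alone, so that its call is no support for a difference. Between stimulated genotypes members past both thresholds numbered 0, against 1 with TMM scaling and 1 in DESeq2, and 0 to 1 over omitted libraries (1 without stimulated WT replicate 3 or stimulated Ikzf1-cko replicate 1). For stimulation in WT there were 3, against 0 with loess scaling and 1 to 6 over omitted libraries (1 without ex vivo WT replicate 3 or stimulated WT replicate 1, 6 without stimulated WT replicate 2). For stimulation in Ikzf1-cko Treg there were 2, against 1 with the filter in all 12 libraries and 2 to 3 over omitted libraries. The response called 0 members under every alternative.

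At FDR below 0.05 alone, 9 members differed between ex vivo genotypes, against 5 with the filter in all 12 libraries, 4 after thinning, 5 in DESeq2 and 2 to 9 over omitted libraries (2 without ex vivo WT replicate 1 or 2, 3 without ex vivo Ikzf1-cko replicate 1 or 2, 5 without ex vivo WT replicate 3). Between stimulated genotypes 12 differed, and 9 to 15 over omitted libraries. With stimulation 12 changed in WT, and 10 to 14 over omitted libraries. In Ikzf1-cko Treg 11 changed, against 5 with the filter in all 12 libraries, 6 after thinning, 5 in DESeq2 and 5 to 12 over omitted libraries (5 without ex vivo Ikzf1-cko replicate 2, 6 and 7 without stimulated Ikzf1-cko replicate 2 and 3). The response differed at 3 members, against 1 with TMM scaling, 1 without a filter, 1 with either limma fit, 1 after thinning, 1 in DESeq2 and 1 to 5 over omitted libraries (1 without ex vivo WT replicate 2 or 3, stimulated WT replicate 1, or stimulated Ikzf1-cko replicate 2 or 3, and 5 without stimulated WT replicate 2).

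With the replicate number as a block, 0, 0, 3, 2 and 0 members passed both thresholds in the 5 comparisons in the order above, and 8, 13, 12, 11 and 1 had FDR below 0.05. Whether the replicate numbers pair the libraries is not known. Tested regions of the cytokine locus held 8 to 269 reads per library, and 3 of its 13 regions, 6 of 22 at Gata3 and 3 of 16 at Il4ra were not tested.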
